A study of Mus musculus with 4 samples.

Results

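The sites described here are 439 positions in mouse thymus where p53 was found by both of its ChIP-seq libraries and PPAR-alpha was not found nearby. They are autosomal summits of p53 replicate 1 (single bases where a called peak is highest) with a replicate 2 summit within 250 bp and no PPAR-alpha summit within 1 kb. Replicate 1 summits in a run of 3 or more within 10 kb were dropped. Of 3608 replicate 1 summits, 3597 lay on chromosomes 1 to 19, 1177 of these had a replicate 2 partner, and 146 of those lay in runs. The remaining 1031 divide into the 439 sites without PPAR-alpha, 12.2% of the autosomal replicate 1 summits, and 592 sites with a PPAR-alpha summit within 1 kb. The sites were selected on the summit positions of all 3 lists, which are measured values, and no score was used, so replication and the lack of PPAR-alpha are not findings here.

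The thymus came from p53 AD/AD mice killed at 4 weeks of age, with germline AD alleles in every cell and in every library. It was used for 2 p53 ChIP libraries, 1 PPAR-alpha ChIP library and 1 input library, which is not analysed here. No wild-type thymus stands beside them, and the labels do not say that the p53 libraries came from separate mice, so the spread between them may be technical. Read length was 50 nt for p53 and 75 nt for PPAR-alpha, so the lack of a PPAR-alpha summit cannot be told apart from a difference in antibody, read length or depth between libraries.

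The transcription factor p53 responds to DNA damage and other stress, and in thymus it is known for driving the death of damaged thymocytes. It normally binds as a tetramer to a response element made of a pair of half-sites, whereas the AD protein forms dimers. PPAR-alpha, a nuclear receptor that pairs with RXR on DNA, is known as a regulator of fatty acid use. NRF1, named below for a sequence, is a promoter-binding factor known for nuclear genes of mitochondrial function.

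Most of the sites without PPAR-alpha lay at gene starts, and the promoter stretches under 6 of the highest-scoring ones are printed here to show the sequence around the summits. They are the first 6 in order of the lower of the 2 scores whose summits in both libraries fell inside a promoter window, which RefSeq (GRCm38.p6) gives as 250 bases before to 50 after an annotated start. Capitals mark matches to GCGCNTGCG on either strand, a sequence of the type bound by NRF1, and overlapping matches run together.
Ppp1r8, chr4:132843120-132843419, - strand: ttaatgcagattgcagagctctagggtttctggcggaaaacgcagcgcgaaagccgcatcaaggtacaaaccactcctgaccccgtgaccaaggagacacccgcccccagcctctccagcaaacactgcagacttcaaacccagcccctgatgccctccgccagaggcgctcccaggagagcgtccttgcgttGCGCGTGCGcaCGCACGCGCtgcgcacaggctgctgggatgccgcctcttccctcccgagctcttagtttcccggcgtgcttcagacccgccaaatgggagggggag
Rad23b, chr4:55349792-55350091, + strand: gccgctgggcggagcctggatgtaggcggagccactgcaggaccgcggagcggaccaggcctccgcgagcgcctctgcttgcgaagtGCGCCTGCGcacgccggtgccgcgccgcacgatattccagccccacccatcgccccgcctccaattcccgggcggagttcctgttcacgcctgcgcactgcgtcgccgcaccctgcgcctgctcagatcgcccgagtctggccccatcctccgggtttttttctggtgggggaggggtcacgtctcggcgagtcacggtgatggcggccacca
Exog, chr9:119444710-119445009, + strand: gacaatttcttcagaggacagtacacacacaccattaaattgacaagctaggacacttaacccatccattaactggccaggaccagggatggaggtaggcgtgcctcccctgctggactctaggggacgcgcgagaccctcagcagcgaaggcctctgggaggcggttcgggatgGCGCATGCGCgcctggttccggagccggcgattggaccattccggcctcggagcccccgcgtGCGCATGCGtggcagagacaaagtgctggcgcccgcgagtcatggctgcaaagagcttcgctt
Herc4, chr10:63243547-63243846, + strand: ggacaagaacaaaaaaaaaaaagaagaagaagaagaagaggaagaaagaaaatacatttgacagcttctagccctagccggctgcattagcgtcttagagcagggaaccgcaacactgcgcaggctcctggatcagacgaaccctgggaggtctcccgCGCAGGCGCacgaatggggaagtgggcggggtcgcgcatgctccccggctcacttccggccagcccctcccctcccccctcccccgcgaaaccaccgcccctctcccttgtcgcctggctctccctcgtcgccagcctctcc
Cltc, chr11:86757518-86757817, - strand: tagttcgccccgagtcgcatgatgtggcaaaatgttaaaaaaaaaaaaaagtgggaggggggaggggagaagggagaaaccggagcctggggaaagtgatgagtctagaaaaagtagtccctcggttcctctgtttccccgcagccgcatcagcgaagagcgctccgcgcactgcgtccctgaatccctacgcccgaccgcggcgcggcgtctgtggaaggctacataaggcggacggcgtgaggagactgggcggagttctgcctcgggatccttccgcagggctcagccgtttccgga
Fnbp4, chr2:90745308-90745607, + strand: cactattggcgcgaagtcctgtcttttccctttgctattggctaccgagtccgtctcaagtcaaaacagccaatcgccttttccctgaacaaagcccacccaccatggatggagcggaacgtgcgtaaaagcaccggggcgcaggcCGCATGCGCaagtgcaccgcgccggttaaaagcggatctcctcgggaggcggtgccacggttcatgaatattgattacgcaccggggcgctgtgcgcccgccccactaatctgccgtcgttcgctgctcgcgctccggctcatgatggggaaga

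At Ppp1r8, which encodes a nuclear inhibitor of protein phosphatase 1, the window held 2 matches, and the replicate 1 and replicate 2 summits lay 6 bp and 0 bp from the middle of the nearest match. At Herc4, a ubiquitin ligase gene, the single match lay 17 bp and 16 bp from the summits, and at Fnbp4, a gene for a formin-binding protein, 24 bp and 0 bp. Exog, a mitochondrial nuclease gene, held 3 matches, of which 2 overlap, and its summits lay 23 bp and 63 bp from the nearest. At Rad23b, a nucleotide excision repair gene, the distances were 65 bp and 91 bp. The window of Cltc, the clathrin heavy chain gene, held no match. None of the 6 windows held a p53 half-site.

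The scores of these sites were low. The authors' score per summit, read as a −log10 p- or q-value, had a median of 3.99 in replicate 1 (lowest 1.68, highest 60.7) and 4.33 in replicate 2 (1.34 to 72.4). At the sites with PPAR-alpha the medians were 5.45 and 5.08, and the highest scores 2455 and 2791. Those highest scores belong to position 35305413 of chromosome 9, 29456 bp from the nearest protein-coding gene boundary. There the summits of all 3 libraries fell on the same base. Whether the input library also has signal there was not tested. Both scores were under 5 at 206 of 439 sites without PPAR-alpha, or 46.9% (95% interval 42.2 to 51.7%), and at 172 of 592 sites with it, or 29.1% (25.4 to 32.9%). The lower of the 2 scores reached 10 at 10 sites without PPAR-alpha (2.28%) and at 54 with it (9.12%). A score of 50 or more in either library occurred at 1 site without PPAR-alpha and at 16 with it. The 439 scores took 21 distinct values in replicate 1 and 22 in replicate 2, so many sites are tied. The paired summits lay a median of 76 bp apart at sites without PPAR-alpha and 68.5 bp at sites with it. All intervals are exact Clopper-Pearson intervals over sites and cover counting error only.

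**Figure D1:**
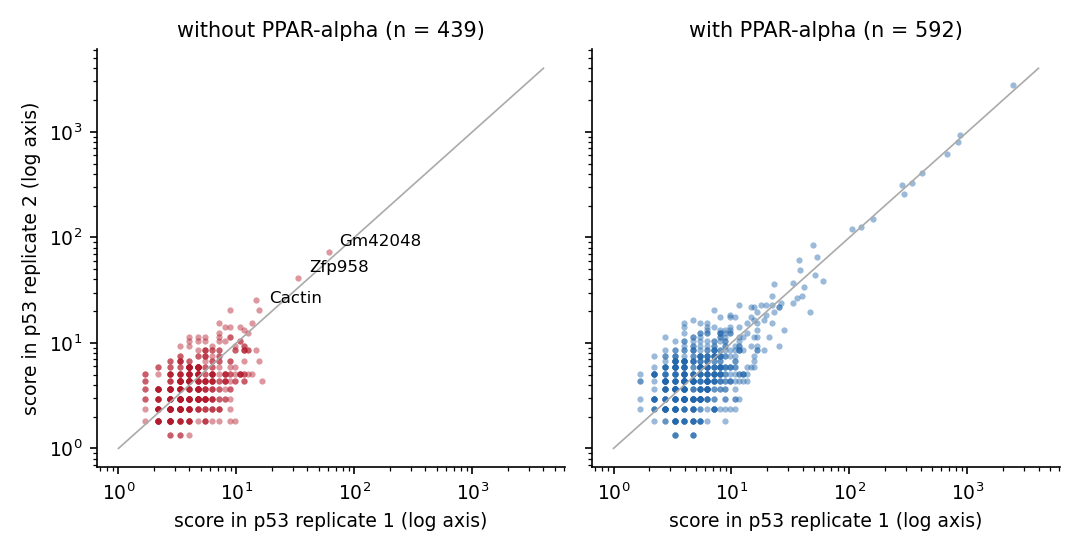
Score of each replicated p53 site in p53 replicate 1 (x axis) and replicate 2 (y axis), both log axes, for the 439 sites without PPAR-alpha (left, red) and the 592 with it (right, blue), with the line of equal scores. The sites without PPAR-alpha end at Gm42048 (60.7 and 72.4), while those with PPAR-alpha reach 2455 and 2791.

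The highest-scoring sites without PPAR-alpha lay at genes of diverse function. Gm42048, a predicted gene, scored 60.7 in replicate 1 and 72.4 in replicate 2, and the summit lay 1161 bp from its boundary, with Klhdc4 also within 5 kb. Zfp958, a zinc finger gene, scored 33.5 and 41.1 at 1001 bp. Cactin, which encodes a splicing-associated protein, scored 15.6 and 20.7, with the summit 73 bp from its boundary. Tcf12, which encodes the E protein HEB, a transcription factor of T cell development, scored 13.6 and 15.3, with the summit 185 bp downstream of an annotated start. Each of these 4 sites scored above 13 in both libraries. Tcf12 was also the nearest gene of sites with PPAR-alpha, 21373 bp (13.6 and 5.88) and 14771 bp (3.99 and 2.97) from its boundary.

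Ppp1r8 scored 11.6 and 13.3 (chromosome 4, position 132843205). Rad23b scored 10.7 and 14.3, and Exog 10.7 and 10.3. Herc4 scored 8.81 in replicate 1 and 20.7 in replicate 2, the widest gap among the sites printed above. Also among the 20 highest were Tmem259 (11.6 and 9.40, with a small nuclear RNA gene 185 bp from the summit), Srl (8.81 and 14.3), Cltc and the chromatin-remodelling gene Smarce1 (8.81 and 11.3 each), and Fnbp4 and Pop7 (12.6 and 8.48 each). Pop7 encodes a subunit of the RNA-processing enzymes RNase P and RNase MRP. No common function was defined for these genes, which were taken by score alone.

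High-scoring sites over 5 kb from every protein-coding gene boundary are given by position. They lay at 26845701 of chromosome 19 (14.6 and 25.2), 40224 bp from the nearest boundary, and at 141018251 of chromosome 5 (10.7 and 10.3). Another lay at 27689294 of chromosome 7 (11.6 and 9.40) inside the zinc finger gene Zfp607b. A further site, at 74252160 of chromosome 4 (9.72 and 9.40), lay inside Kdm4c, a histone demethylase gene, 281 bp from an annotated start of that gene. Among the 20 highest sites, Arid1b, a chromatin-remodelling gene, also held its summit deep inside the gene, 51771 bp from a boundary (14.6 and 8.48).

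The sites nearest the limits of the rule were Tgfbr3, a transforming growth factor receptor gene, with 248 bp between its p53 summits, and Ucp2, whose nearest PPAR-alpha summit lay 1029 bp away. Just outside them were Kpna1, with 252 bp between summits, and Zswim4, with a PPAR-alpha summit at 939 bp. A PPAR-alpha summit lay 1 to 5 kb away at 42 of the 439 sites (9.57%) and over 50 kb away at 273 (62.2%).

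Sites without PPAR-alpha lay at gene boundaries, nearly all of them starts, more often than sites with PPAR-alpha. Protein-coding gene boundaries lay within 1 kb of 305 of 439 sites without PPAR-alpha, or 69.5% (64.9 to 73.8%), and of 329 of 592 with it, or 55.6% (51.5 to 59.6%). The odds ratio was 1.82 (95% interval 1.39 to 2.38; Fisher's exact test, two-sided, p = 5.76e-06, adjusted p = 8.64e-06 over the 3 location measures). Sites over 5 kb from every such boundary made up 81 of 439, or 18.5%, without PPAR-alpha and 192 of 592, or 32.4%, with it (odds ratio 0.472, 0.346 to 0.640, Fisher's exact adjusted p = 1.14e-06). Sites within 1 kb of the boundaries of 2 or more genes made up 12.3% without PPAR-alpha and 10.1% with it, an odds ratio of 1.24 whose interval of 0.824 to 1.87 includes 1 (Fisher's exact adjusted p = 0.315). These tests compare classes of sites from the same 3 libraries and carry no replicate check.

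The share within 1 kb was higher without PPAR-alpha on 17 of 19 chromosomes. On chromosome 4 it was lower without PPAR-alpha (47.1%, against 55.6% with it), and on chromosome 13 both shares were 64.3%. Among all autosomal summits the share was 49.4% in p53 replicate 1, 49.1% in p53 replicate 2 and 42.1% in PPAR-alpha. Taken from a single p53 library with no partner needed, sites without PPAR-alpha had a share of 55.4% from replicate 2 and 55.2% from replicate 1. The odds ratios against sites with PPAR-alpha were then 1.26 (Fisher's exact adjusted p = 0.000595) and 1.22 (Fisher's exact adjusted p = 0.0178).

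**Figure D2:**
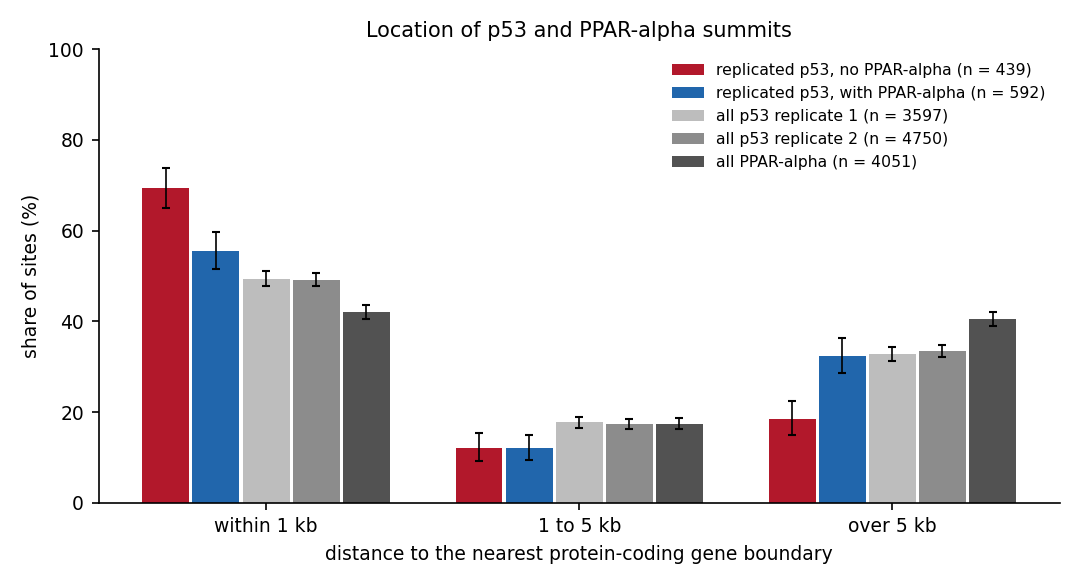
Share of sites (y axis, %) within 1 kb, 1 to 5 kb and over 5 kb from the nearest protein-coding gene boundary, for replicated p53 sites without PPAR-alpha (red), with it (blue) and all summits of each library (greys), with exact 95% intervals. The sites without PPAR-alpha have the tallest bar within 1 kb (69.5%) and the shortest beyond 5 kb (18.5%).

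The scores of the 2 classes differ, so their shares within 1 kb were also set side by side within ranges of the lower score. Under a score of 3, 63.7% of 201 sites without PPAR-alpha and 50.8% of 183 with it lay within 1 kb (odds ratio 1.69, 1.11 to 2.61). For scores of 3 to under 5 the shares were 73.5% of 151 and 57.6% of 184 (2.04, 1.25 to 3.35), and for 5 to under 10 they were 79.2% of 77 and 59.6% of 171 (2.57, 1.33 to 5.19). At 10 or more they were 5 of 10 without PPAR-alpha and 28 of 54 with it, with an interval of 0.190 to 4.55 around an odds ratio of 0.930. The difference was thus seen in each range below 10, and the 10 sites above it are too few to show one.

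The gene boundaries were almost always starts. Among sites within 1 kb whose gene has a known strand, the nearer boundary was the start at 240 of 244 sites without PPAR-alpha (98.4%) and at 271 of 281 with it (96.4%). Against annotated starts of any gene, with chromosome 18 left out, 223 of 427 sites without PPAR-alpha (52.2%) and 244 of 578 with it (42.2%) lay within 300 bp. Among the 286 sites without PPAR-alpha within 1 kb of a start, the median position was 33.5 bp downstream, with 118 summits upstream and 168 at or downstream of it. For the 335 sites with PPAR-alpha the median was 17 bp downstream.

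**Figure D3:**
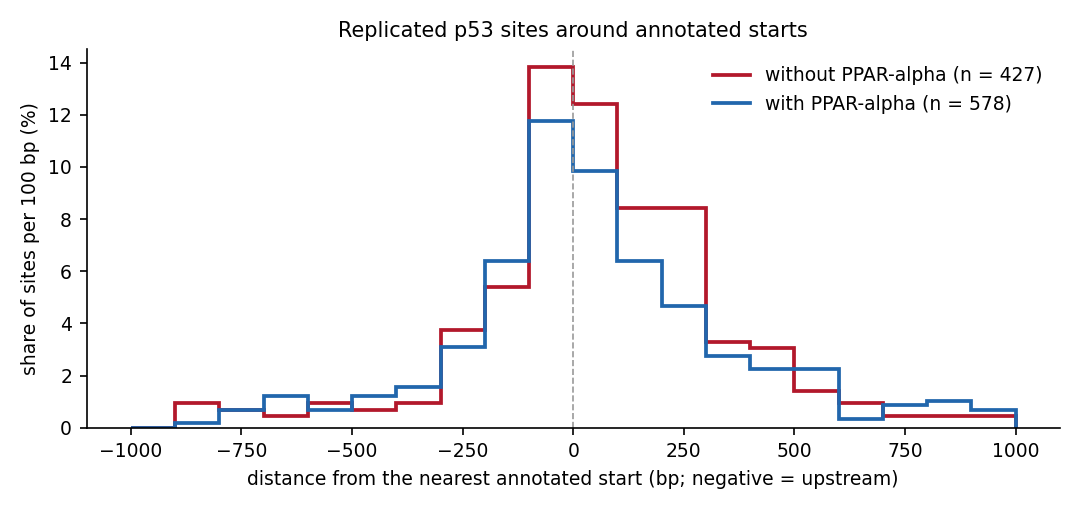
Share of replicated p53 sites (y axis, % of sites per 100 bp) by distance from the nearest annotated start (x axis, bp, negative upstream), for 427 sites without PPAR-alpha (red) and 578 with it (blue), chromosome 18 left out. Both classes peak around the start, and the median of the sites within 1 kb is 33.5 bp downstream without PPAR-alpha and 17 bp with it.

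Of the 81 sites without PPAR-alpha over 5 kb from protein-coding boundaries, 44 lay inside a protein-coding gene, and 15 lay within 1 kb of a gene of any other kind. Those 15 included 3 at transfer RNA genes and 8 at long noncoding RNA genes. Among all 439 sites, 49 (11.2%) lay within 1 kb of a long noncoding RNA gene boundary, and of the sites with PPAR-alpha 75 of 592 (12.7%) did.

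Matches to GCGCNTGCG, searched on both strands, were found at 63 of 135 sites without PPAR-alpha whose replicate 1 summit fell in a promoter window, or 46.7% (38.0 to 55.4%). Among sites with PPAR-alpha it was 88 of 161, or 54.7% (46.6 to 62.5%). The sequence was in 6.37% of all 31396 promoter windows of these chromosomes and in 17.8% of the 8491 windows with 20 or more CpG. Such CpG-rich windows made up 77.8% of the windows without PPAR-alpha, 77.0% of those with it and 27.0% of all. Within ranges of CpG count the order of the 2 classes varied, and their intervals overlapped in each range under 40 CpG. No test was run on these ranges. Under 10 CpG, 1 of 6 windows without PPAR-alpha and 0 of 9 with it held the sequence. From 10 to under 20 it was 4 of 24 and 13 of 28, and from 20 to under 30 it was 35 of 61 and 22 of 55. From 30 to under 40 it was 21 of 35 and 34 of 47. At 40 or more it was 2 of 9 (2.81 to 60.0%) and 19 of 22 (65.1 to 97.1%), beside 20.5% of all such windows. In the lower ranges, from the lowest up, the sequence was in 0.296%, 8.25%, 15.7% and 20.2% of all windows. Replicate 1 summits with no replicate 2 partner held the sequence in 32.1% of 271 windows, and PPAR-alpha summits with no p53 summit within 1 kb in 16.7% of 174. A match is a description of the window, not a site of NRF1 binding, and NRF1 was not measured here.

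The share with this sequence was higher at higher scores. Without PPAR-alpha it was 32.6% of 46 windows under a score of 3, 44.9% of 49 from 3 to under 5 and 65.0% of 40 at 5 or more. With PPAR-alpha the same ranges gave 36.4%, 44.0% and 69.2%. The summits lay close to the matches, with a median distance of 25 bp in replicate 1 and 26 bp in replicate 2 at the 63 sites without PPAR-alpha, and 22 bp and 22.5 bp at the 88 with it. Within 50 bp were 45 of the 63 replicate 1 summits and 35 of the replicate 2 summits. At the 29 PPAR-alpha summits without p53 the median distance was 93 bp. When sites without PPAR-alpha were taken from a single p53 library, the share of windows with a match was 31.1% from replicate 2 and 38.9% from replicate 1.

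Some summit pairs fell on or beside the sequence in both libraries. At Pola2, a DNA polymerase alpha subunit gene, the summits lay 6 bp and 0 bp from the nearest match, and at Sdhaf4, an assembly factor gene of respiratory complex II, 8 bp and 19 bp. At Mrpl9, a mitochondrial ribosomal protein gene, they lay 5 bp and 38 bp away, and at Erg28 26 bp and 2 bp. Pola2, Sdhaf4 and Erg28 were picked as examples after their values were seen.

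A p53 half-site was found in few of these windows. It occurred in 6 of the 135 windows without PPAR-alpha, or 4.44% (1.65 to 9.42%), and in 3.73% of those with it. The shares were 8.35% of all windows and 5.12% of the CpG-rich ones, and the interval without PPAR-alpha includes both. No window of the 6 held a pair of half-sites with up to 13 bases between them. The 6 genes were Mrpl44, Rps19, Hint3, C1d, Ndfip2 and Fbxw11, and scores there ranged between 2.18 and 12.6 in replicate 1. The half-site of nuclear receptors, AGGTCA, was in 10.4% of windows without PPAR-alpha and 7.45% of those with it, and in 16.3% of all and 8.55% of CpG-rich windows. The ETS-type sequence CCGGAAG was in 23% and 21.1%, and in 9.0% of all and 19.6% of CpG-rich windows. The GC box GGGCGG was in 52.6% and 57.8%, and in 36% of all and 81.0% of CpG-rich windows. Of these sequences, the NRF1-type one had the widest ratio to the CpG-rich windows. Absence of these letters from a window of 300 bases says nothing of p53 binding.

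**Figure D4:**
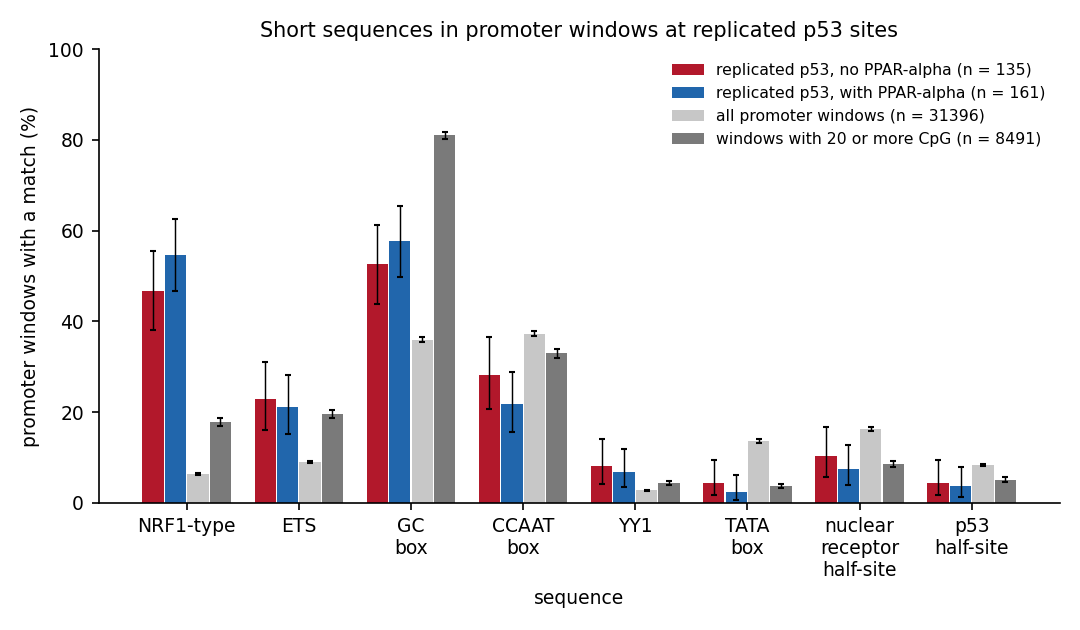
Share of promoter windows (y axis, %) with a match to each short sequence (x axis), for windows at p53 sites without PPAR-alpha (red, 135), with it (blue, 161), all windows (light grey, 31396) and windows with 20 or more CpG (dark grey, 8491), with exact 95% intervals. The NRF1-type bars stand at 46.7% and 54.7% against 6.37% and 17.8%, and the p53 half-site bars at 4.44% and 3.73% against 8.35% and 5.12%.

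At least 1 of the sites without PPAR-alpha lay within 5 kb of 483 of 20661 autosomal protein-coding genes, a background of 2.34%. For sites with PPAR-alpha it was 555 genes (2.69%), and for any PPAR-alpha summit 2683 genes (13.0%). Of the 483 genes, 59 (12.2%) had a PPAR-alpha summit within 5 kb. The rule leaves out sites with a PPAR-alpha summit within 1 kb, so the 12.2% is not read against the 13.0%. The gene lists below were chosen with earlier results of these data known, and they are described by counts beside the background, with no test.

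Genes of cytosolic ribosomal proteins, the structural proteins of the ribosome, had the highest share without PPAR-alpha of the 15 lists. A site without PPAR-alpha lay near 16 of 75 (21.3%, interval 12.7 to 32.3%) and a site with PPAR-alpha near 11 (14.7%). Rpl14 scored 9.72 in replicate 1 and 8.48 in replicate 2, Rpl5 7.07 and 8.48, Rpl27 and Rpl7 7.07 and 6.72 each. The Rpl14 summit lay 2558 bp from that gene and 120 bp from a long noncoding RNA gene, and those at Rpl4, Rps18 and Rps27a lay nearest to Zwilch, Vps52 and Clhc1. Taking the highest site of each gene, 10 of the 16 lay within 1 kb of an annotated start of any gene. Starts were available for 79.6% of autosomal protein-coding genes, and the nearest start is not always that of the ribosomal protein gene. Of these, 7 (70.0%) lay at 50 bp or more downstream of it, beside 130 of 286 (45.5%) of all sites without PPAR-alpha within 1 kb of a start, and 3 of the 10 fell in a promoter window, beside 135 of the 286. With a lower score of at least 5, which left 87 of the 439 sites, 8.0% of the list remained. The share of all genes at that limit was not computed, so the drop cannot be set against the background.

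Genes of the respiratory chain and ATP synthase had a site without PPAR-alpha at 6 of 80 (7.5%, 2.80 to 15.6%) and a site with PPAR-alpha at 1 (1.25%). The 6 were Uqcrc1, a core subunit of complex III (9.72 and 8.48), the ATP synthase genes Atp5g2 (11.6 and 6.72) and Atp5pb (11.6 and 5.08), Cox6a1 of complex IV, and Ndufs8 and Ndufv2 of complex I (2.74 and 3.62, and 5.45 and 2.37). Cox6a1 had 2 such sites, one 214 bp upstream of its start (3.34 and 3.62) and the other 4527 bp from the gene and nearer to Gatc (3.99 and 5.08). Mitochondrial ribosomal protein genes had 4 of 77 without PPAR-alpha (5.19%, 1.43 to 12.8%) and 5 with it (6.49%). The interval without PPAR-alpha includes the background of 2.34%. The highest scores without PPAR-alpha were at Mrps35 (6.24 and 6.72) and Mrpl9 (6.24 and 8.48). The other 2 were Mrpl44 (5.45 and 5.88) and Mrpl30 (2.74 and 1.83). The boundary nearest to the Mrpl30 site was that of Mitd1.

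Splicing factor genes showed the opposite balance. They had a site without PPAR-alpha at 6 of 75 (8.0%) and a site with PPAR-alpha at 16 (21.3%). The highest without PPAR-alpha were Dhx15, an RNA helicase (7.07 and 12.3), Hnrnpm (7.07 and 5.88), Hnrnpu (4.70 and 4.33) and Prpf3, of the U4/U6 snRNP (3.34 and 5.08). The summit at Hnrnpu lay nearer to Cox20, with a PPAR-alpha summit 1060 bp away. Hnrnpu also had a site with PPAR-alpha (3.34 and 3.62), so it is counted on both sides. This contrast with the ribosomal proteins was not tested.

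The other housekeeping lists had few sites, and the interval of each share without PPAR-alpha includes the background of 2.34%. Aminoacyl-tRNA synthetase genes, which charge tRNAs, had 3 of 37 without PPAR-alpha (8.11%) and 4 with it, and Yars2 had the highest scores (6.24 and 7.58), ahead of Vars2 (2.74 and 6.72) and Mars1 (2.74 and 2.37). The boundary nearest to the Vars2 site was that of Gtf2h4. Translation initiation factor genes had 2 of 44 and 3, namely Eif4h (8.81 and 5.08) and Eif3d (3.99 and 5.88) without PPAR-alpha. Proteasome subunit genes had 2 of 47 and 2, with Psmd1 (5.45 and 8.48) and Psmd5 (5.45 and 5.08) without PPAR-alpha. Nuclear pore genes had 1 of 25 and 2, with Nup133 (3.34 and 4.33) without PPAR-alpha. DNA repair genes had 3 of 67 and 5. Those without PPAR-alpha were Rnf8, a ubiquitin ligase of the damage response (6.24 and 6.72), Fance (4.70 and 5.08) and Parp1 (2.18 and 5.88). The Fance site is also that of Rpl10a and lies nearer to it.

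**Figure D5:**
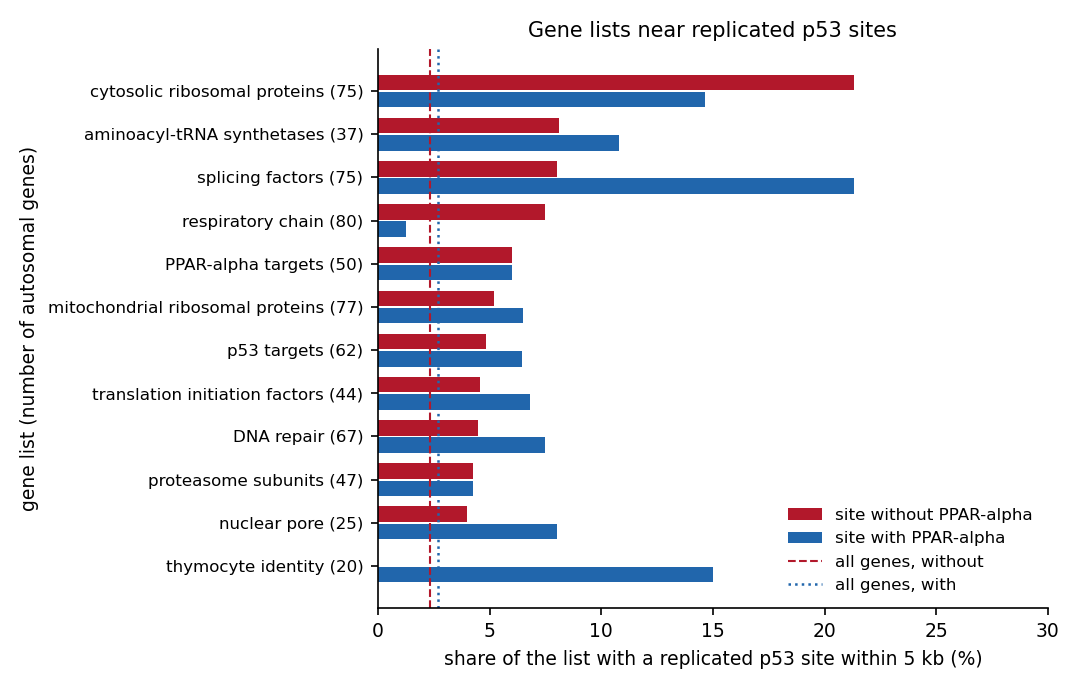
Share of each gene list (x axis, %) with a replicated p53 site within 5 kb, without PPAR-alpha (red) and with it (blue), for the 12 lists of 20 or more autosomal genes (number in brackets), with dashed and dotted lines at the shares of all genes, 2.34% and 2.69%. Cytosolic ribosomal proteins lead without PPAR-alpha (21.3%), and splicing factors lead with it (21.3%).

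Known p53 target genes had a site without PPAR-alpha at 3 of 62 (4.84%, 1.01 to 13.5%) and a site with PPAR-alpha at 4 (6.45%). The interval without PPAR-alpha includes the background of 2.34%. The 3 were Cop1, a ubiquitin ligase gene that acts on p53 (6.24 and 3.62, 244 bp from the gene), the death receptor gene Fas (6.24 and 2.37, 2615 bp) and the forkhead factor gene Foxo3 (3.99 and 5.88, 273 bp). At Foxo3 a PPAR-alpha summit with a score of 8.57 lay 1122 bp from the site, just past the limit. The target genes with p53 summits of both libraries within 5 kb that missed the replicate distance included Gadd45a, with 299 bp between them, and Pidd1, with 345 bp. These examples were picked for this after their values were seen. At Cdkn1a, the cell cycle inhibitor p21, the nearest summits lay 56315 bp away in p53 replicate 1, 8822 bp in replicate 2 and 8809 bp in PPAR-alpha. At Mdm2, the ubiquitin ligase that limits p53, they lay 36450 bp, 59535 bp and 207849 bp away in the same libraries.

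PPAR-alpha target genes had 3 of 50 without PPAR-alpha (6.0%, 1.25 to 16.5%) and 3 with it (6.0%). The interval includes the background of 2.34%, and the background with PPAR-alpha was 2.69%. The 3 were Angptl4, an inhibitor of lipoprotein lipase (6.24 and 4.33), Crat, carnitine acetyltransferase (4.70 and 3.62), and Ucp2, a mitochondrial uncoupling protein (3.99 and 4.33). Their nearest PPAR-alpha summits lay 20789 bp, 178641 bp and 1029 bp from the p53 site.

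No gene of the thymocyte identity list had a site without PPAR-alpha (0 of 20, interval up to 16.8%), beside the background of 2.34%. A site with PPAR-alpha lay near 3 of the 20, beside 2.69% of all genes. A replicate 1 summit lay near 15 of 20, a replicate 2 summit near 18 and a PPAR-alpha summit near 16. For PPAR-alpha the share of all genes was 13.0%, and for each p53 library it was not computed. The rule drops sites near PPAR-alpha summits, so the 0 of 20 is not read as a result about these genes. Among markers of B cells, myeloid cells and thymic epithelium, 0 of 10 genes each had a site of either kind. A replicate 1 summit lay near 1, 1 and 0 of them, a replicate 2 summit near 1, 2 and 2, and a PPAR-alpha summit near 1, 1 and 0.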

How the data were processed

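ChIP-seq summits of 2 p53 libraries and 1 PPAR-alpha library from p53 AD/AD mouse thymus were compared by position. The authors deposited 1 summit list per library, called separately, with a score read as a −log10 p- or q-value from its form and range, which no label states. Per the submitters' processing notes, which give no roles, the tools were MACS2 2.1.2, Picard 2.9.0 and Bowtie2 2.3.4.2. The same notes list the human build GRCh38. Positions were thus checked against RefSeq mouse genes of GRCm38.p6: 69.5% of the sites without PPAR-alpha lay within 1 kb of a protein-coding boundary, and 6.38 to 10.3% did after moving them by 5 to 50 kb. Read depth is unknown, since the lists give none. No genome sequence was used, so motifs were searched in RefSeq promoter windows, which cover 79.6% of autosomal protein-coding genes and none on chromosome 18.

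Sites were paired, filtered and placed in Python 3.11.15 with pandas 2.3.3, NumPy 2.4.6 and SciPy 1.17.1. Shares were compared by Fisher's exact test, two-sided, with Benjamini-Hochberg adjustment over 3 location measures. The procedure was tested on simulated data with known positions and odds ratios. Alternatives changed distances, score limits, windows, run rule, the gene set, the library that places the site and the need for both libraries. The members, lists and tests were chosen with earlier results of these data known, and the ribosomal, respiratory and other family lists were matched to symbols in the gene table. Named were genes of the 20 sites with the highest lower score, p53 and PPAR-alpha targets with a site, the 4 highest of each other list, the 5 highest sites far from genes and the sites at each limit. A site that this rule names is not reported here.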

Additional observations from a re-analysis of the deposited data

How the results depend on the processing

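No paired analysis was possible because no groups that share replicate numbers were compared. The odds ratio of lying within 1 kb of a gene boundary stayed above 1 and past the threshold in all 14 alternatives (1.22 to 2.29, Fisher's exact adjusted p at most 0.0178), and that of lying over 5 kb away stayed below 1 and past it in all 13 (0.398 to 0.823). The odds ratio for 2 or more genes passed the threshold in none of its 14 alternatives and turned below 1 with a PPAR-alpha limit of 250 bp (0.891) and a lower score of at least 5 (0.847). The number of sites was 266 with a pairing distance of 100 bp and 87 with a lower score of at least 5. Taken from a single p53 library with no partner needed, it was between 1781 and 2460. The share within 1 kb was 75.9% with a lower score of at least 5, 60.8% within 500 bp, 81.5% within 5 kb, 74.9% with all genes, and between 55.2 and 55.4% from a single p53 library. The following were added after seeing the data. The share of windows with the NRF1-type sequence was 65.0% with a lower score of at least 5, and between 31.1 and 38.9% from a single p53 library. The share of ribosomal protein genes was 8.0% with a lower score of at least 5, and the share of respiratory chain genes was between 3.75 and 7.5% in its 3 alternatives. The share of all genes under these alternatives was not computed. Read depth is unknown and the PPAR-alpha library has no replicate, so a site without PPAR-alpha cannot be told apart from one where PPAR-alpha was missed.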
